A study of Mus musculus with 96 samples.

Results

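The expression of 10 genes known from blood stem cells and multipotent progenitors was followed in single erythroid progenitors of the mouse fetal liver: Cd34, Cd93, Adgrl4, Meis1, Hoxa9, Hlf, Mecom, Erg, Runx1 and Mycn. They were taken by symbol, and all 10 were found among the 49466 genes of the count table. At least 1 read was seen for 20754 of these genes. The cells came from livers of C57/Bl6J embryos at day 14.5. Cells positive for CD3e, CD45R, Ly-6G, CD11b, Ter119, Sca-1, CD16/32 or CD41 had been removed with beads, and the rest was sorted by CD117 (Kit), CD71 and CD24. A 96-well plate for Smart-seq2, which amplifies full-length cDNA of 1 cell per well, held 4 gates of 24 wells. BFUE (burst-forming unit-erythroid, the earliest committed red cell progenitor) came first, then cells with 25 to 35% and with 50 to 60% of CD71/CD24 expression, and CFUE (colony-forming unit-erythroid) last. The middle gates are termed lower intermediate and upper intermediate. Position on the plate cannot be told apart from the sort, because 3 whole columns were given to each gate. The labels name no treatment, mutation or single animal for any gate. Each gate is therefore 1 sample, and all differences given are descriptions without a test.

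Wells with 50000 or more reads were kept, which left 91 of 96 cells of 947458 to 3785903 reads. Of these, 23 were BFUE, 21 lower intermediate, 24 upper intermediate and 23 CFUE cells. Levels are reads per 1000000 reads (CPM) of the counts summed over the cells of a group. Their exact 95% Poisson intervals cover counting error only, since PCR reads without molecular identifiers are not independent molecules. The BFUE gate was split at 100 CPM of Cd34 into 8 Cd34-high cells and 15 other cells. The 8 cells held 1036 to 2202 CPM of Cd34, and none of the other 83 kept cells exceeded 5.16 CPM, so no cell lay near the split. Of the 8 cells 4 were in the upper and 4 in the lower plate rows, and they held reads of 8515 to 9980 genes, against 9118 to 9898 in the other BFUE cells.

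The set joins cell surface proteins to the transcription factors of early blood cells. Meis1 and Hoxa9 are homeodomain proteins that bind DNA together with PBX proteins. Runx1 and Erg are members of the RUNX and ETS families needed to form blood, and Hlf and Mecom are transcription factors used to mark stem cells. In textbook accounts this programme fades as cells commit to the red lineage, in which Gata1 and Klf1 take over and signals of the erythropoietin receptor (Epor) sustain the cells.

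The Cd34-high cells were low in red cell genes, against the erythroid label of their gate. Gata1, the master regulator of red cell genes, was at 12.7 CPM in the Cd34-high cells and 411 CPM in the other BFUE cells. Klf1, the activator of globin and membrane genes, was at 18.5 CPM in the Cd34-high cells and 657 CPM in the other BFUE cells. Epor was at 2.42 CPM in the Cd34-high cells and 188 CPM in the other BFUE cells. Per cell the groups did not overlap for any of these 3 genes. Mpo, myeloperoxidase of neutrophil precursors, ran the other way, at 2366 CPM in the Cd34-high cells and 13.6 CPM in the other BFUE cells. A single CFUE cell, of well D10, also stood apart, with 3.17 CPM of Gata1, and it held 1 read of Cd93 and none of the other 9 genes. That cell had the fewest reads of all kept cells, 947458.

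The promoters of 4 genes are shown because they stand for both classes of genes found within the BFUE gate, which are defined after them. Cd34 and Adgrl4 were read only in the Cd34-high cells beyond traces, while Meis1 and Runx1 were also read in other BFUE cells. Each runs from 250 bases before to 50 bases after a start in RefSeq (GRCm38.p6), at chr1:194938571-194938870 (+) for Cd34, chr3:151437632-151437931 (+) for Adgrl4, chr11:19018920-19019219 (-) for Meis1 and chr16:92826025-92826324 (-) for the distal start of Runx1. Capitals mark the ETS core GGAAG and the RUNX motif TGTGGT on either strand (CTTCC and ACCACA on the strand printed).
Cd34: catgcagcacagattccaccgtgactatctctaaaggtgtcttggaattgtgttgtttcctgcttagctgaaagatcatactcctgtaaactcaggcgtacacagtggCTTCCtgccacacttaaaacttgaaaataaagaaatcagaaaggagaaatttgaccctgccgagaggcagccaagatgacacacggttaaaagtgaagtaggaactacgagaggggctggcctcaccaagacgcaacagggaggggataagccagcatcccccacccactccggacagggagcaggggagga
Adgrl4: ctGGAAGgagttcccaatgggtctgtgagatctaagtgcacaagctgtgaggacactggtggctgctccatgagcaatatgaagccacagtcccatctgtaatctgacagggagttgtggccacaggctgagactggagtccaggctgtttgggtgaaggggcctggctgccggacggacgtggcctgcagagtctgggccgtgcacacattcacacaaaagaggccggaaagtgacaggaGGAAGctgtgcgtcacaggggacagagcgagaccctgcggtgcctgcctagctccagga
Meis1: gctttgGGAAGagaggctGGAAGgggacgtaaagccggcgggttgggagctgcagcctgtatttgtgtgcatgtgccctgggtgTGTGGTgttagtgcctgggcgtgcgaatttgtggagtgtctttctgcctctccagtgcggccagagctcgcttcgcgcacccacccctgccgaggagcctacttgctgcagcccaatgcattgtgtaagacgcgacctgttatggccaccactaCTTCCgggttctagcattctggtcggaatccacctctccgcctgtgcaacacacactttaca
Runx1: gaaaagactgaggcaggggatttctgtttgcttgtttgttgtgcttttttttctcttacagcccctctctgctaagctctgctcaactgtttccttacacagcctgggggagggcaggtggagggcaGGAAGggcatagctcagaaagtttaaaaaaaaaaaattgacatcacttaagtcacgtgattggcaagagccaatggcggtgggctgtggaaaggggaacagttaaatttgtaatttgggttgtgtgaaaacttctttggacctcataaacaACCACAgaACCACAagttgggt

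The ETS core stood 1 time in the Cd34, 2 times in the Adgrl4, 3 times in the Meis1 and 1 time in the Runx1 window. The RUNX motif stood 1 time in the Meis1 and 2 times in the Runx1 window, and in neither of the Cd34 and Adgrl4 windows. Of 13 RefSeq promoters of 9 of the genes, 10 held the ETS core, which 71.4% of all 32851 promoters of this length hold. The RUNX motif was in 2 of the 13, against 16.8% of all promoters. The GATA motif AGATAA was in 1 of the 13, a promoter of Erg, against 11.2% of all promoters. These are matches of letters and not measured binding.

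Within BFUE, 4 of the 10 genes were confined to the Cd34-high cells: Cd34, Cd93, Adgrl4 and Erg. A gene counted as confined where at most 10% of the other BFUE cells, but at least 50% of the Cd34-high cells, held it at 10 CPM or more. Across all 9224 genes at 10 CPM or more in either set of cells, 2.43% met this. Meis1 and Runx1 were kept, meaning that at least 50% of the other BFUE cells held them at 10 CPM or more, as did 71.8% of all genes. Hoxa9, Hlf, Mecom and Mycn met neither definition. Meis1 lay just inside the second, in 53.3% of the other BFUE cells, and Hoxa9 just outside the first, in 13.3%. None of the confined genes reached 10 CPM in any of the 15 cells, which allows a share of up to 21.8% (exact binomial). That bound takes the cells as independent draws. It covers no spread between animals or sorts, since the labels name no animal. Of the 9 genes at 10 CPM or more in either set (all but Mecom), 7 were at least 10-fold higher in the Cd34-high cells, against 7.33% of all genes. Meis1 and Runx1 were also higher there, but less than 10-fold. Cd34, Cd93, Adgrl4, Hoxa9, Hlf and Erg reached 10 CPM only in the Cd34-high cells, so their direction was fixed by how they were measured. Meis1, Runx1 and Mycn were at 10 CPM or more in both sets. The median log2 ratio of the 9 was 8.83, against 0.03 over all genes. Cd34 drew the split, so its own difference is no finding. Without it, 6 of 8 genes were at least 10-fold higher, at a median log2 ratio of 6.53, and 3 of 9 genes were confined.

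**Figure D1:**
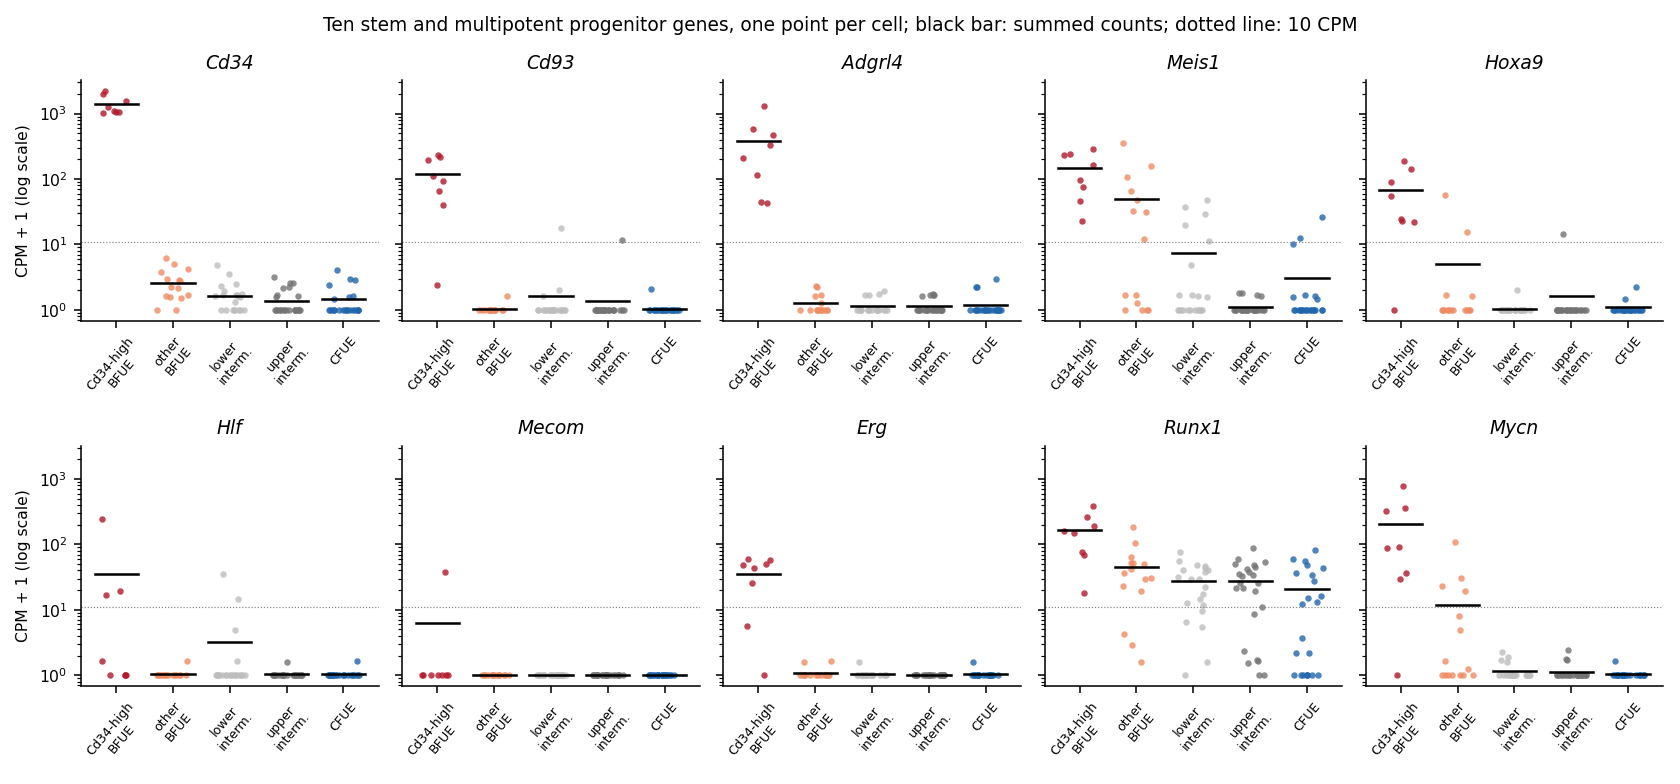
Each panel shows 1 gene; each point is 1 cell at its CPM + 1 on a log axis, the black bar is the level of the summed counts, and the dotted line lies at 10 CPM. Of the 8 Cd34-high BFUE cells, all stand above the line for Cd34 and Adgrl4, 7 for Cd93 and 6 for Erg. None of the 15 other BFUE cells does so for these genes. Meis1 and Runx1 extend into the other BFUE cells, and Runx1 also extends into all later gates.

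Of the surface genes, Cd34 (chromosome 1, 194938819 to 194961279, + strand) encodes a sialomucin of stem and endothelial cells. It had 16809 reads in the 8 Cd34-high cells, which is 1404 CPM (1383 to 1425), and 41 reads or 1.56 CPM (1.12 to 2.12) in the other 15. Traces went on through the plate: 13 of 15 other BFUE, 13 of 21 lower intermediate, 8 of 24 upper intermediate and 7 of 23 CFUE cells held a read, and no such cell held as many as 10. Of all Cd34 reads of the kept cells, 99.5% were in the 8 cells. An antisense gene, Gm16897, shares 148 exon bases with Cd34 and had 46 reads against 16900 of Cd34, and the strand setting of the counting is not given.

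Adgrl4 (chromosome 3, 151437887 to 151545086, + strand), an adhesion G protein-coupled receptor best known from endothelium, had 41.4, 267 and 1289 CPM as the lowest, median and highest Cd34-high cell. The other BFUE cells held at most 1.32 CPM, so the sets did not overlap. Summed, it was at 381 CPM (370 to 392) in the Cd34-high cells and 0.267 CPM in the other BFUE cells, 1427-fold higher (interval 692 to 3551). Well H2 held 40.3% of its reads in these cells, and without that cell the level was 258 CPM.

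Cd93 (chromosome 2, 148436640 to 148443563, - strand), a C-type lectin receptor of early progenitors and endothelium, had 1.40, 100.4 and 233 CPM as the lowest, median and highest Cd34-high cell. Among the other BFUE cells 1 read was found in all. The low Cd34-high cell was again that of well H2, the one highest in Cd34 and Adgrl4, so the surface genes did not go together in every cell. Beyond BFUE, Cd93 reached 10 CPM in 1 lower intermediate cell (well D4, 16.7 CPM) and 1 upper intermediate cell (well D7, 10.7 CPM), and in neither did Cd34. Per kilobase of exon, the levels in the Cd34-high cells were 193 CPM for Cd34, 83.1 CPM for Adgrl4 and 17.8 CPM for Cd93.

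Relatives of these surface genes were not confined. Of 11 genes, 4 were at 10 CPM or more in either set of BFUE cells, of which 3 were at least 1.5-fold higher and 1 lower in the Cd34-high cells. Over all 9224 genes the shares were 30.4% higher and 25.4% lower, and the counts of every gene list below are to be read against them. Adgrg1, another adhesion receptor, was at 1179 CPM in the Cd34-high cells and 681 CPM in the other BFUE cells, and at 285, 275 and 280 CPM in the lower intermediate, upper intermediate and CFUE gates. Adgrg3 was at 232 CPM in the Cd34-high cells, with all 8 at 10 CPM or more, and at 16.4 CPM in the other BFUE cells, with 5 of 15. Adgre5 (CD97) was the lower one, at 5.18 CPM in the Cd34-high cells and 25.1 CPM in the other BFUE cells.

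Other stem and progenitor surface genes were more often higher than lower in the Cd34-high cells. Of 16, 14 were measured, 12 at least 1.5-fold higher and 2 lower, against 30.4% and 25.4% of all genes, at a median log2 ratio of 2.73. Flt3, a cytokine receptor of multipotent and lymphoid progenitors, was at 688 CPM in the Cd34-high cells and 1.03 CPM in the other BFUE cells. Cd27, a TNF receptor family member, was at 338 CPM in the Cd34-high cells and 0.382 CPM in the other BFUE cells. Both were at 10 CPM or more in all 8 Cd34-high cells and in none of the other 15. Cd48, a SLAM family surface protein, crossed the split, at 318 CPM in the Cd34-high cells and 75.1 CPM in the other BFUE cells. The 2 lower genes were Slamf1 (CD150), at 0.501 CPM in the Cd34-high cells and 31.8 CPM in the other BFUE cells, and Itga2b (CD41), at 33.9 CPM in the Cd34-high cells and 148 CPM in the other BFUE cells. CD41-positive cells had been depleted, and the transcript was at 10 CPM or more in 2 of 8 Cd34-high and 10 of 15 other BFUE cells. Ly6a, the gene of the depleted Sca-1 antigen, was at 10 CPM or more in 2 of the 8 Cd34-high cells.

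Meis1 (chromosome 11, 18879817 to 19018985, - strand) crossed the split. The Cd34-high cells had 22.04, 130 and 286 CPM as lowest, median and highest, and all 8 reached 10 CPM. The other BFUE cells had 0, 11.2 and 349 CPM. Of them, 8 of 15 reached 10 CPM (53.3%, exact binomial 95% interval 26.6 to 78.7%, cells taken as independent). The ranges overlapped, and the highest cell of all, that of well G2, was among the other BFUE cells. Summed, Meis1 was at 148 CPM (141 to 155) in the Cd34-high cells and 48.4 CPM (45.8 to 51.1) in the other BFUE cells, 3.06-fold higher (2.85 to 3.29). The cell of well G2 held 43.8% of the reads of the other BFUE cells, and without it the ratio was 5.12-fold. Among the other BFUE cells, those 8 with Meis1 held 0.62, 190 and 1353 CPM of Gata2, a factor of early progenitors, as lowest, median and highest, and the 7 without held 1.17, 28.4 and 292 CPM. These ranges of Gata2 overlapped. Gata1 overlapped too, with medians of 417 CPM in cells with Meis1 and 454 CPM in those without.

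Past BFUE, Meis1 went on in few cells. Levels of the summed counts were 6.41 CPM in the lower intermediate gate, 0.11 CPM in the upper and 2.06 CPM in CFUE. The lower intermediate gate had 5 of 21 cells at 10 CPM or more, up to 46.6 CPM in well H5. The upper gate had none of 24, with 4 reads in all. In CFUE, 2 of 23 cells reached 10 CPM, and the cell of well G12 held 37 of the 73 reads. CFUE was 23.5-fold below the other BFUE cells (18.6 to 30.2), and 14.05-fold without the cell of well G2. The gene Gm37818 overlaps Meis1 on the same strand and had 53 reads.

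Hoxa9 (chromosome 6, 52223100 to 52231089, - strand), partner of Meis1, was nearly confined. Of the 8 Cd34-high cells 7 held it at 21.1 to 187 CPM, and the cell of well B1 held none. Among the other BFUE cells only those of wells D1 (55.4 CPM) and E1 (14.4 CPM) reached 10 CPM. Summed, it was at 66.6 CPM (62.0 to 71.3) in the Cd34-high cells and 4.04 CPM (3.31 to 4.89) in the other BFUE cells, 16.5-fold higher (13.4 to 20.3). Well D1 held 77.4% of the reads of the other BFUE cells, and without it the ratio was 68.6-fold. These 2 other BFUE cells also held Meis1, at 155 CPM in well D1 and 31.3 CPM in well E1. In the later gates Hoxa9 reached 10 CPM in 1 of 68 cells, in well E7 of the upper intermediate gate.

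Of 17 other Hox and TALE homeobox genes, 5 were measured, 2 of them at least 1.5-fold higher and 0 lower in the Cd34-high cells. Hoxa7, the neighbour of Hoxa9 in the HoxA cluster, was at 53.2 CPM in the Cd34-high cells and 0.382 CPM in the other BFUE cells. All 8 Cd34-high cells held it, at 22.2 to 136 CPM, and no other BFUE cell went above 3.29 CPM, so Hoxa7 was confined where Hoxa9 was not. Hoxa5 was at 12.3 CPM in the Cd34-high cells, in 2 of them, and had no read in the other BFUE cells. The TALE genes Pknox1, Tgif1 and Pbx4 differed by less than 1.5-fold: Pknox1 was at 41.2 CPM in the Cd34-high cells and 46.6 CPM in the other BFUE cells. The HoxB genes Hoxb2, Hoxb3, Hoxb4 and Hoxb5 had no read in the Cd34-high cells.

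Hlf (chromosome 11, 90336536 to 90390895, - strand), a PAR bZIP factor of long-term stem cells, was read in few cells. Of the 8 Cd34-high cells 3 held it at 10 CPM or more: 247 CPM in well H2, 18.4 CPM in well B2 and 16.1 CPM in well E3. The other BFUE cells held 1 read in all. Well H2 carried 86.7% of the reads, and without it Hlf was at 5.12 CPM in the remaining 7 cells, against 34.0 CPM with it. Hlf also appeared in 2 lower intermediate cells, at 33.9 CPM in well A5 and 13.7 CPM in well C6, and these cells held 0.72 and 3.91 CPM of Cd34. Of its 3 relatives 2 were measured, 1 higher and 1 lower in the Cd34-high cells. Tef was at 0.167 CPM in the Cd34-high cells and 20.03 CPM in the other BFUE cells, and Nfil3 was at 19.9 CPM in the Cd34-high cells and 1.41 CPM in the other BFUE cells.

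Mecom (chromosome 3, 29951296 to 30548008, - strand), a zinc finger factor of stem cells, was read in 1 cell of the plate. The cell of well E3, a Cd34-high cell, held 63 reads or 36.3 CPM, and none of the other 90 kept cells held a read. Over the 15 other BFUE cells, 0 reads allow a level of up to 0.114 CPM by the limit of 3 reads, or 0.141 CPM by the exact Poisson interval. The same cell also held Hlf and Meis1, had no read of Mycn and was highest in Gata2 among the Cd34-high cells, at 492 CPM. The counts do not tell the long and short forms of Mecom apart. Of 6 PRDM genes and partners, 4 were measured, 3 of them higher and 0 lower in the Cd34-high cells. Ctbp1, a corepressor that Mecom binds, was at 102 CPM in the Cd34-high cells and 111 CPM in the other BFUE cells. Its relative Ctbp2 was at 28.8 CPM in the Cd34-high cells and 11.8 CPM in the other BFUE cells.

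Erg (chromosome 16, 95359169 to 95586593, - strand) had 0, 45.1 and 58.0 CPM as lowest, median and highest Cd34-high cell. Of these 6 of 8 reached 10 CPM, the cell of well E3 held 4.61 CPM and that of well C1 none. The other BFUE cells held 2 reads in all. Erg was at 34.7 CPM (31.4 to 38.2) in the Cd34-high cells and 0.0763 CPM in the other BFUE cells, 454-fold higher on those 2 reads (125 to 3763). Among the 68 later cells there were 2 reads. The 6 cells past 10 CPM held 24.4 to 58.0 CPM.

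The ETS family held genes of both classes. Of 12 further ETS genes 11 were measured, 7 of them at least 1.5-fold higher and 2 lower in the Cd34-high cells, at a median log2 ratio of 1.08. Fli1, the closest relative of Erg, was kept. It was at 63.5 CPM in the Cd34-high cells and 51.4 CPM in the other BFUE cells, at 10 CPM or more in 7 of 8 and 10 of 15 cells. Past BFUE, Fli1 stood at 5.09 CPM in the lower intermediate gate, 0 in the upper and 0.113 CPM in CFUE. Ets1 was confined, at 32.0 CPM in the Cd34-high cells with no read in the other BFUE cells. Spi1 (PU.1), a myeloid and lymphoid regulator, was at 278 CPM in the Cd34-high cells and 20.1 CPM in the other BFUE cells, of which 7 of 15 reached 10 CPM. Elf1 was at 222 CPM in the Cd34-high cells and 124 CPM in the other BFUE cells, and Gabpa at 62.5 CPM in the Cd34-high cells and 56.6 CPM in the other BFUE cells.

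Runx1 (chromosome 16, 92601466 to 92826149, - strand) was read at 10 CPM or more in more cells than any of the other 9 genes. The Cd34-high cells had 16.9, 155 and 386 CPM as lowest, median and highest. The other BFUE cells had 0.594, 35.6 and 186 CPM. Of them, 12 of 15 were at 10 CPM or more (80.0%, exact binomial 95% interval 51.9 to 95.7%, cells taken as independent). The ranges of both sets overlapped. Summed, Runx1 was at 164 CPM (157 to 172) in the Cd34-high cells and 44.0 CPM (41.5 to 46.6) in the other BFUE cells, 3.73-fold higher (3.47 to 4.02). The later gates kept it at 26.5, 27.0 and 19.8 CPM from lower intermediate to CFUE, with 16 of 21, 16 of 24 and 12 of 23 cells at 10 CPM or more. CFUE was 2.22-fold lower than the other BFUE cells (2.02 to 2.44). The step between the intermediate gates was 1.02-fold with an interval of 0.93 to 1.12, which covers counting error only. Between cells, the standard deviation was 20.3 CPM in the lower and 22.9 CPM in the upper intermediate gate. CFUE stood below the upper intermediate gate by a log2 ratio of -0.44 (-0.59 to -0.30). An antisense gene, Gm26626, shares 106 exon bases with Runx1 and had 69 reads against 5629. The counts do not tell the distal and proximal promoters of Runx1 apart.

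Of 6 RUNX relatives and partners, 5 were measured, 2 of them higher and 0 lower in the Cd34-high cells. Cbfb, the subunit that helps RUNX proteins bind DNA, was at 43.7 CPM in the Cd34-high cells and 11.7 CPM in the other BFUE cells. It stood at 2.06, 2.03 and 0.113 CPM in the lower intermediate, upper intermediate and CFUE gates, where Runx1 itself stood at 19.8 to 27.0 CPM. Runx2 was read at 23.3 CPM in the Cd34-high cells, in 3 of them, and had no read in the other BFUE cells. Runx3 was at 28.5 CPM in the Cd34-high cells and 22.1 CPM in the other BFUE cells. The corepressor gene Cbfa2t3 (ETO2) was at 88.8 CPM in the Cd34-high cells and 84.1 CPM in the other BFUE cells.

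Mycn (chromosome 12, 12936093 to 12941914, - strand), a MYC paralog active in stem cells, varied widely between cells. The Cd34-high cells had 0, 88.8 and 787 CPM as lowest, median and highest, with 7 of 8 at 10 CPM or more and none in well E3. Of the other BFUE cells 4 of 15 reached 10 CPM, in wells D1 (107 CPM), A2 (29.4 CPM), A3 (21.97 CPM) and C3 (18.7 CPM). Summed, Mycn was at 207 CPM (199 to 215) in the Cd34-high cells and 10.99 CPM (9.76 to 12.3) in the other BFUE cells, 18.8-fold higher (16.7 to 21.4). That ratio was 39.7-fold without the cell of well D1 and 11.7-fold without that of well H2. All later gates together held 10 reads: 5, 4 and 1 from lower intermediate to CFUE.

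Myc, the paralog that drives growth in most dividing cells, did not follow Mycn. Myc was at 791 CPM in the Cd34-high cells and 908 CPM in the other BFUE cells, and at 705, 614 and 404 CPM in the lower intermediate, upper intermediate and CFUE gates. Every BFUE cell held Myc at 159 CPM or more. Of 10 MYC, MAX and MXD genes, 7 were measured in BFUE, 1 higher and 4 lower in the Cd34-high cells, at a median log2 ratio of -0.64. The lower ones included Mlx, at 16.5 CPM in the Cd34-high cells and 78.1 CPM in the other BFUE cells, and Max, the partner of MYC proteins, at 6.85 CPM in the Cd34-high cells and 20.2 CPM in the other BFUE cells.

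**Figure D2:**
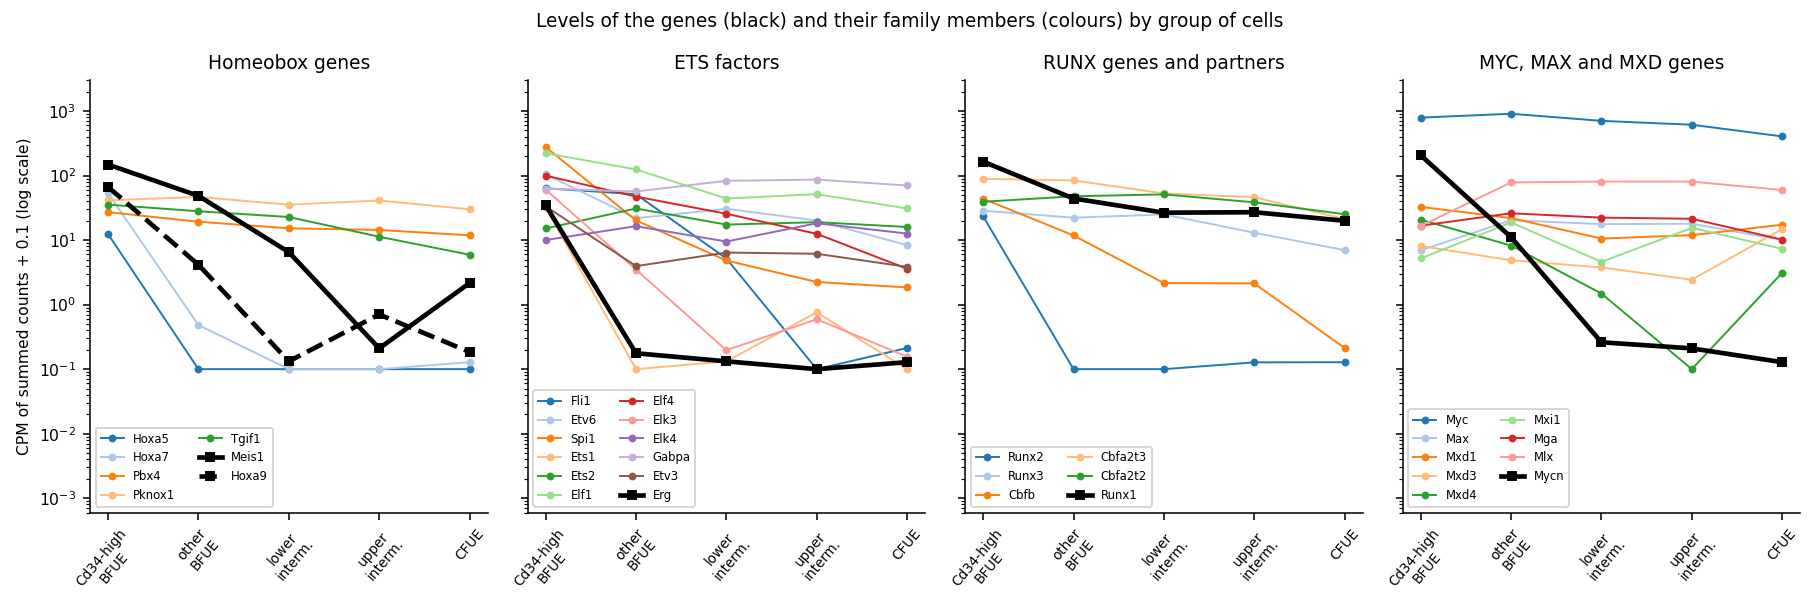
Lines give the level of the summed counts (CPM + 0.1, log axis) of each gene in Cd34-high BFUE, other BFUE, lower intermediate, upper intermediate and CFUE cells, with Meis1, Hoxa9, Erg, Runx1 and Mycn in black and measured relatives in colour. Erg and Hoxa7 stand far lower in the other BFUE cells while Fli1 and Pknox1 do not, and Mycn stands at 207 CPM in Cd34-high and 10.99 CPM in other BFUE cells while Myc stays between 404 and 908 CPM throughout.

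Other stem and progenitor transcription factors lay on both sides. Of 17 genes, 12 were measured, 5 of them at least 1.5-fold higher and 6 lower in the Cd34-high cells, against 30.4% and 25.4% of all genes, at a median log2 ratio of -0.38. Satb1, a chromatin organiser of stem and lymphoid cells, was confined, at 54.2 CPM in the Cd34-high cells and 0.0763 CPM in the other BFUE cells. Lyl1 and Hhex were higher but kept, at 313 and 120 CPM in the Cd34-high cells and 123 and 57.5 CPM in the other BFUE cells. Gata2, Lmo2, Tal1 and Gfi1b, factors that red cell and platelet precursors also use, were lower: Lmo2 was at 177 CPM in the Cd34-high cells and 556 CPM in the other BFUE cells, and Gfi1b at 86.9 CPM in the Cd34-high cells and 345 CPM in the other BFUE cells. Ikzf1 (Ikaros) differed little, at 368 CPM in the Cd34-high cells and 321 CPM in the other BFUE cells.

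Counted per cell, the Cd34-high cells held 7 to 9 of the 10 genes at 10 CPM or more, with a median of 8. The other BFUE cells held 0 to 4, with a median of 1, and the sets did not overlap; Cd34 itself is 1 of the genes counted. Lower intermediate cells held 0 to 2, upper intermediate cells 0 to 2 and CFUE cells 0 or 1, and in the last gate 14 of 23 held 1 gene and 9 held none. No cell held all 10. The cell of well B2 held the most, all but Mecom. With every cell thinned to 500000 reads and 10 reads asked for, the medians were 7.5 in the Cd34-high and 1 in the other BFUE cells.

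**Figure D3:**
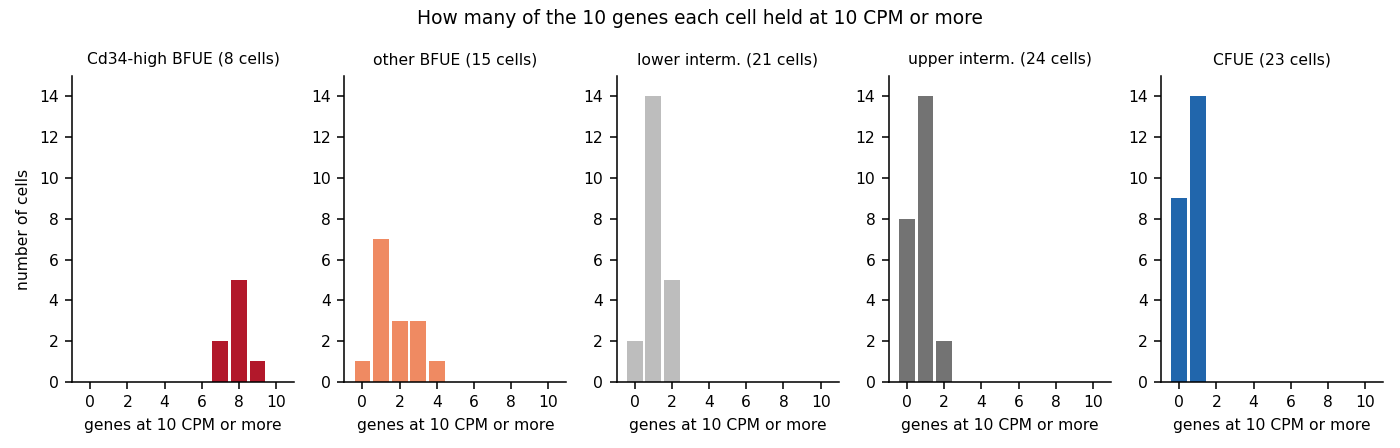
Bars count the cells of each group by how many of the 10 genes they held at 10 CPM or more. The 8 Cd34-high BFUE cells sit at 7 to 9, all other cells at 4 or fewer, and CFUE cells at 0 or 1.

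The cell of well D1 stood apart among the other BFUE cells, with 4 genes at 10 CPM or more: Runx1 (186 CPM), Meis1 (155 CPM), Mycn (107 CPM) and Hoxa9 (55.4 CPM). It had no read of Cd34, Cd93, Adgrl4 or Erg. Its Gata2 was the highest of all BFUE cells, at 1353 CPM. Its Epor was the lowest of the other BFUE cells, at 16.2 CPM, and its Klf1 was at 206 CPM, while Gata1 was the highest of the 23 cells at 583 CPM. Cells of wells A2, C3 and E1 held 3 of the genes each. The pair Meis1 and Runx1, each at 20 CPM or more, was found together in 5 of the 15 other BFUE cells and in 7 of the 8 Cd34-high cells.

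**Figure D4:**
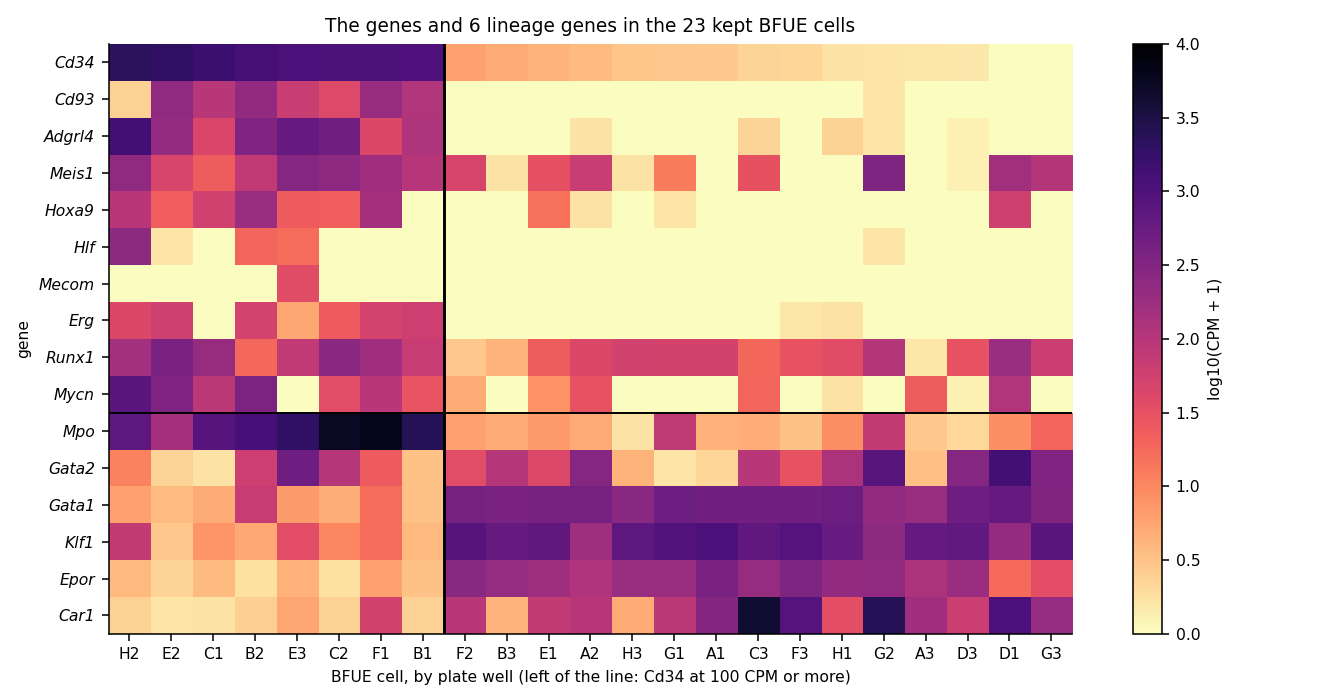
Colour gives log10(CPM + 1) of the 10 genes (above the horizontal line) and of 6 lineage genes (below it) in the 23 kept BFUE cells, ordered by Cd34 within each set, Cd34-high cells left of the vertical line. The 8 cells at the left all lie above 10 CPM for Cd34, Adgrl4, Meis1, Runx1 and Mpo, while 3 of them do so for Hlf and 1 for Mecom, and the cell of well D1 is dark for Meis1, Hoxa9, Runx1, Mycn, Gata2 and Gata1 together.

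Markers of other cell types were read in the same cells. Of 8 neutrophil and monocyte genes, 3 were at 10 CPM or more in the Cd34-high cells: Mpo, Prtn3 (184 CPM against 18.05 CPM in the other BFUE cells) and Csf1r (95.1 CPM against 0.0763 CPM). Elane and Ly6c2 had no read there. Their summed level ran from 294 to 6989 CPM per Cd34-high cell, against 1.32 to 88.7 CPM per other BFUE cell. Of 7 lymphoid genes, 2 were at 10 CPM or more, Il7r in 4 and Ccr9 in 3 of the 8 cells, while Dntt, Cd3e and Igll1 had no read there, and the sums reached 836 CPM in a Cd34-high cell and at most 1.35 CPM in another BFUE cell. Of 6 mast cell genes, Cpa3 reached 10 CPM in 1 Cd34-high cell and the other 5 had no read. Of 7 megakaryocyte genes, 3 were at 10 CPM or more in the Cd34-high cells and Pf4 and Ppbp had no read, with sums of 5.80 to 735 CPM per Cd34-high cell and 0.620 to 1442 CPM per other BFUE cell.

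Since Cd34, Cd93, Adgrl4 and Erg are also endothelial genes, 12 endothelial markers were read beside them. Cdh5, Kdr, Lyve1, Stab2, Sox17 and Clec14a had no read in any of the 8 Cd34-high cells. The other 6 were all at 10 CPM or more in the Cd34-high cells, 5 of them at least 1.5-fold higher there than in the other BFUE cells and 1 lower. Pecam1 was at 108 CPM in the Cd34-high cells and 12.3 CPM in the other BFUE cells, 8.80-fold higher, and Esam at 116 CPM in the Cd34-high cells and 3.93 CPM in the other BFUE cells, 29.5-fold higher. Esam was at 10 CPM or more in 3 of the 8 Cd34-high cells, with 790 CPM in the highest. Emcn was at 31.7 CPM in the Cd34-high cells with no read in the other BFUE cells, at least 277-fold higher by the limit of 3 reads over the group. Tie1 was 6.86-fold and Tek 3.01-fold higher, and Plvap was the lower one. These sums rested on few cells. Emcn was at 10 CPM or more in 3 of 8 Cd34-high cells, and Tie1 in 3 of 8 Cd34-high and 2 of 15 other BFUE cells. Tek was at that level in 2 of 8 Cd34-high and 4 of 15 other BFUE cells. The summed level ran from 3.2 to 1279 CPM per Cd34-high cell, against 1.29 to 176 CPM per other BFUE cell. Macrophage markers were under 10 CPM in every group, with C1qa, C1qb, Vcam1 and Mrc1 at no read in the Cd34-high cells. Cd68 came just under, at 9.85 CPM in the Cd34-high cells and 3.51 CPM in the other BFUE cells. It was at 10 CPM or more in 2 of 8 and 1 of 15 of these cells. Of 8 hepatoblast and stroma genes 4 were measured, 2 of them higher and 0 lower in the Cd34-high cells. Pdgfrb, a stromal receptor gene, was at 92.3 CPM in the Cd34-high cells and 0.267 CPM in the other BFUE cells, 346-fold higher, at 10 CPM or more in 5 of 8 and 0 of 15 cells. Ttr was at 35.6 CPM in the Cd34-high cells and 6.87 CPM in the other BFUE cells, 5.18-fold higher. Afp and Alb differed by less than 1.5-fold, Afp at 96.8 CPM in the Cd34-high cells and 106 CPM in the other BFUE cells, while Dcn, Col1a1 and Col3a1 had no read in the Cd34-high cells. All 9 red cell markers were at 10 CPM or more in some group, and of the 7 measured in BFUE all 7 were lower in the Cd34-high cells. The part of these other programmes in the values of the 10 genes was not tested.

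Set across the whole gates, 9 of the 10 genes were measured, all 9 were at least 1.5-fold lower in CFUE than in BFUE, and 8 at least 10-fold, against 29.6% and 6.59% of 8701 genes. Only Runx1 reached 10 CPM in CFUE. The other genes were measured through BFUE alone, which fixed their direction in advance, so the count of lower genes is no finding about them. The median log2 ratio of the 9 was -8.60, against -0.14 over all genes. The exception from the 10-fold differences was Runx1, at 19.8 CPM in CFUE and 81.7 CPM in BFUE, 4.12-fold lower (3.80 to 4.48). Without the cell of well H2, Hlf and Erg were under 10 CPM in both gates, which left 7 genes, all lower. Adgrl4 was at 0.197 CPM in CFUE and 120 CPM in BFUE, 606-fold lower (294 to 1509), and 377-fold without that cell. Mycn was 2569-fold lower in CFUE (1 read), with an interval of 461 to 101513, and 1587-fold without that cell.

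Set against the other BFUE cells alone, few of the genes were left to compare. Meis1, Runx1 and Mycn were at 10 CPM or more in CFUE or the other BFUE cells, and all 3 were at least 1.5-fold lower in CFUE, against 24.9% of 8246 genes. Only Runx1 reached 10 CPM in both groups. Meis1 and Mycn were measured through the other BFUE cells alone, which fixed their direction in advance. The median log2 ratio of the 3 genes was -4.55, against -0.11 over all genes. Mycn stood at 1 read in CFUE and 288 reads in the other BFUE cells, 390-fold lower on that read (69.4 to 15441). Without the cell of well D1 it was at 5.22 CPM in the other BFUE cells and no longer measured, which left 2. The lower intermediate gate was 7.55-fold below the other BFUE cells for Meis1 (6.498 to 8.81), 1.66-fold for Runx1 (1.52 to 1.82) and 68.3-fold for Mycn (28.9 to 212), which had 5 reads there. The upper intermediate gate was 58.3-fold below the lower one for Meis1 (22.4 to 216), on 4 reads and with both gates under 10 CPM. This was no steady fall, since Meis1 was at 0.11 CPM in the upper intermediate gate and 2.06 CPM in CFUE, on 73 reads. Hlf was higher in the lower intermediate gate, at 2.22 CPM, than in the other BFUE cells, at 0.0382 CPM. It had 69 reads in that gate, 47 of them from 1 cell.

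For each gene at 20 CPM or more in at least 5 of the 91 cells, the genes on in most nearly the same cells were found, as the cells where both were at 20 CPM or more out of those where either was. This was done over 9044 genes and is a description of shared cells. Cd34 and Adgrl4 shared all 8 of 8 cells with each other, and with Lsp1 and Flt3. Ties were ordered by mean CPM, so the genes named are not the only ones that match. Plac8 also shared 8 of 8 cells with Cd34, and Cd27 and Hoxa7 were at 20 CPM or more in all 8 cells and in no other BFUE cell. Cd93 shared 7 of 7 with Tmem173, Serpinb1a and Ncf1. Hoxa9 shared 8 of 8 with Sh2d3c, and 8 of 9 with Emb and Ebi3. Erg came nearest to Gpr171 (6 of 7), and Mycn to Gng2 (10 of 13). Meis1, on in 19 cells, came nearest to Ifitm3 (15 of 20), an antiviral membrane protein gene. Ifitm3 was at 182 CPM in the Cd34-high cells and 24.6 CPM in the other BFUE cells. Runx1, on in 53 cells, came nearest to Kcnab2 (48 of 74), a potassium channel subunit gene, which was at 108 CPM in the Cd34-high cells and 150 CPM in the other BFUE cells.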

How the data were processed

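The submitters' processing notes name STAR 2.4 as aligner, GRCm38 as genome and featureCounts as counter for the 96 single-cell libraries. The authors deposited whole-number counts per gene without normalisation. Not given in the sources used here: annotation release, strand setting and treatment of multimapping reads. Column names stood shifted by an empty header cell and were taken in order. Rows that name no gene held 0 reads, and 0 columns lacked a sample. For 76 symbols with several identifiers, the one with most reads was used. Coordinates are from GENCODE release 21 of the mouse (M21, GRCm38), 1-based, and promoters from RefSeq (GRCm38.p6). A promoter of Cd93 was not used here.

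Wells under 50000 reads (10596 to 16644 in 5 wells) were left out. Each well was sorted as 1 cell, and no doublets were called. Kept cells had 947458 to 3785903 reads. Counts were summed per group, with exact Poisson intervals at 95%. Ratios had exact conditional binomial (Clopper-Pearson) intervals, and a count of 0 stood at 3 counts over the group. No ratio was given where both groups were at or below 3 counts. A gene was measured at 10 CPM in either group, and counted as higher or lower at 1.5-fold. Where only 1 group reached 10 CPM, the direction of the ratio was fixed by this rule. The ratio step was tested on simulated data.

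The 10 genes, the gene lists and the rules were chosen with earlier results of these data known. Named were all 10 genes and, per list, up to 4 genes highest in the Cd34-high and up to 2 highest in the other BFUE cells. Other list genes in the text (Adgre5, Slamf1, Ly6a, Hoxa5, Fli1, Ets1, Runx2, Mlx, Max, Satb1, Gata2 and Tal1, where outside that rule) and wells D1, D10, G2, E3 and H2 were chosen for mention once their values had been seen. Marker lists are given by counts, sums and genes with no read, and the marker genes printed with values were likewise chosen once seen. Some genes that meet these rules are not reported here.

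Values were recomputed as means over cells, with group sums scaled by size factors of DESeq2 1.42.0 or by TMM in edgeR 4.0.16, with other read minimums, totals without globin, mitochondrial and ribosomal RNA genes, each 4 plate rows by themselves, cells thinned to 500000 reads, other splits on Cd34, other levels, floors and folds, and without the cell that held most of a gene's reads. Leaving out the BFUE cell of well D1 or H2 was chosen after seeing the data. Software was R 4.3.3 and, under Python 3.11.15, scipy 1.17.1, pandas 2.3.3, matplotlib 3.10.9 and numpy 2.4.6.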

Additional observations from a re-analysis of the deposited data

Results flagged for a closer look

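In wells left out for too few reads, some of the 10 genes stood above every kept CFUE cell. At the depth of these wells, a single read of Cd34 or Adgrl4 was enough for this. In the lower intermediate well E5, with 16644 reads, 1 read of Adgrl4 was 60.1 CPM and 2 reads of Cd34 were 120 CPM. The kept Cd34-high BFUE cells held 1036 to 2202 CPM of Cd34. The BFUE well D2, with 12472 reads, held 8 reads of Cd34, which is 641 CPM, and 4 reads of Adgrl4, which is 321 CPM. The CFUE well C12, with 14286 reads, held 6 reads of Cd34, which is 420 CPM, and 4 reads of Runx1, which is 280 CPM. The highest kept CFUE cell held 3.06 CPM of Cd34, 1.93 CPM of Adgrl4 and 82.6 CPM of Runx1. These wells entered no comparison, and the source of their reads of these genes was not tested.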

How the results depend on the processing

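Alternatives changed the number of kept genes once: with 20 CPM in place of 10 CPM asked of a cell, 1 gene was kept in the other BFUE cells instead of 2, since Meis1 was then at that level in 7 of 15 cells (46.7%) and Runx1 in 11. Of the 72 alternatives of the counts and per-cell medians, the other 71 stayed within 1.5 times the reported value. They included 5 confined genes without the cell of well D1, 6 in plate rows E to H, and 5 genes at least 10-fold higher in the Cd34-high cells in rows A to D. An unchanged count did not always mean the same genes. In rows A to D alone, Mycn met the definition of kept and Meis1 did not, at an unchanged count of 2. In rows E to H alone, Meis1 was kept and Mycn was among the confined genes. For single genes, 264 alternatives of 21 ratios gave a value, all 264 in the reported direction and past 1.5-fold, 44 of them outside the reported counting interval. The shared direction is no independent support. Cd34 drew the split between the BFUE sets, and a gene at 10 CPM or more in only 1 group had its direction fixed by the rule. The closest to 1.5-fold was Runx1 in CFUE against the other BFUE cells, at log2 ratios of -1.55 to -0.84. Hlf, Erg and Mycn gave no value where they were under 10 CPM in both groups. Depth limits the ratios that rest on 1 to 3 reads, those of Cd93, Hlf, Erg, Hoxa9 and Mycn, whose intervals are wide. No paired analysis was possible because the wells of different gates share no source named in the labels and no result comes from a test.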
